A study of Mus musculus with 12 samples.

Results

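The 10 genes described here encode cytosolic glutathione S-transferases (GSTs): Gsta2, Gsta3 and Gsta4 of the alpha class, Gstm1, Gstm2, Gstm3, Gstm4 and Gstm6 of the mu class, Gstp1 of the pi class and Gstt1 of the theta class. They were found by symbol, as probe sets to which the platform annotation gives 1 of these symbols and no other. The 10 genes had 15 such probe sets, and each gene was read from its brightest probe set, by mean level on the 12 arrays. They are 10 of 18193 genes with a probe set of their own, and all 10 passed the filter on dim genes that left 13788 genes to test.

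The values come from whole-liver RNA of 12 mice, all males of the inbred strain C57BL6J, killed at 30 weeks of age, with 1 expression array per mouse. All mice began on a normal chow with 13.5% of its energy as fat. The control chow group (n = 3) drank water without antibiotic and stayed on chow, and the penicillin chow group (n = 3) stayed on chow and drank water with low-dose penicillin at 6.7 mg/L. The control high-fat group (n = 3) and the penicillin high-fat group (n = 3) had the same waters and were moved at 17 weeks to a diet with 45% of its energy as fat. The age at which penicillin began is not given in the labels used here.

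GSTs join the tripeptide glutathione to electrophiles, among them drug epoxides, carcinogens and the aldehydes that form when membrane lipids oxidise, and so make them easier to export. The cytosolic enzymes act as dimers within a class, are abundant in hepatocytes, and in rodent liver several alpha and mu class genes are induced through NRF2, the transcription factor of the antioxidant response, and through the xenobiotic receptors CAR and PXR. Gsta4 is known for conjugating hydroxynonenal, a product of lipid peroxidation, Gsta3 for conjugating the epoxide of aflatoxin in mice, Gstt1 for acting on small halogenated compounds, and Gstp1 for being higher in male than in female mouse liver. Levels below are log2 expression on the scale of the deposited table, where 1 unit is a doubling of signal, changes are differences of group means with the standard error (SE) of the fit, and p-values are those of limma, adjusted by Benjamini-Hochberg across all 13788 genes, with a gene called at an adjusted p under 0.05. Levels of different probe sets are not comparable with each other. Where groups are said to overlap or not, this describes the mice of a member. How many of all genes had groups without overlap was not counted.

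The arrays were those of liver: the 14 measured hepatocyte markers lay at or above the 98.7th percentile of all probe sets, with Alb between 14.98 and 15.05. Of other cell types, 7 of 9 measured cholangiocyte, 5 of 7 adipocyte and 10 of 12 lymphocyte markers passed the filter. Those below it were Krt7 and Cftr, Adipoq and Lep, and Cd2 and Cd79a. All 16 macrophage and Kupffer, 14 sinusoidal endothelial and 15 stellate markers passed. Correlations between arrays within groups were 0.992 to 0.996. The GST genes were bright, with means from the 93.0th to the 99.9th percentile of all probe sets. The 18S control signal was between 11.76 and 11.81 in penicillin chow 2, penicillin chow 3 and penicillin high-fat 2, and between 12.67 and 13.87 in the other arrays, and the acute-phase score (the mean log2 value of 18 genes, each centred on its mean over the arrays) was highest in penicillin chow 1, at 0.87 against at most 0.33 elsewhere. Cage, litter and scan batch were not used here.

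High-fat feeding without antibiotic lowered 2 of the 10 genes, Gsta2 of the alpha class and Gstm3 of the mu class, and raised none past the threshold. Gsta2, an inducible alpha class enzyme, stood at 11.62, 11.02 and 12.08 in the control chow mice and at 9.99, 9.87 and 9.32 in the control high-fat mice. All 3 high-fat mice lay below all 3 chow mice. Gsta2 fell by 1.85 ± 0.24 (SE, n = 3 per group; 3.60-fold lower; adjusted p = 0.00637 by limma). Gstm3 stood at 11.52, 11.27 and 11.89 in the control chow mice and at 10.03, 9.89 and 9.65 in the control high-fat mice. These groups did not overlap either. Gstm3 fell by 1.71 ± 0.19 (3.26-fold lower; adjusted p = 0.00423 by limma). Over all genes tested 0.899% were called in this comparison and 0.247% were called lower, and the median change was -0.47 for the 10 GST genes against 0.00 over all genes. In whole-liver RNA, fewer cells of a type and less RNA per cell cannot be told apart.

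A further 6 members had an unadjusted p under 0.05 in this comparison, as did 2082 of the 13788 genes in all, and missed the adjusted threshold. The aldehyde-conjugating gene Gsta4 was at -0.60 ± 0.17 (adjusted p = 0.118 by limma), and the mu class genes Gstm1, Gstm2 and Gstm4 were at -0.35 ± 0.10, -0.67 ± 0.20 and -0.61 ± 0.16 (adjusted p from 0.105 to 0.137). Gstp1 was at -0.31 ± 0.10 (adjusted p = 0.172 by limma). Gstt1 was the member with a positive value, at 0.38 ± 0.09 (adjusted p = 0.0811 by limma), and its control high-fat mice, at 12.86, 12.79 and 12.68, all lay above its control chow mice, at 12.40, 12.26 and 12.51. Gsta3 was at -0.04 with a 95% interval from -0.19 to 0.11, and Gstm6 at -0.23 with an interval from -0.56 to 0.09. The mouse control high-fat 3 had the lowest value of its group in all 10 genes. Without it Gsta2 still fell, by 1.65 (adjusted p = 0.0170 by limma; range over the fits that left out 1 array 0.00342 to 0.0346), and Gstm3 by 1.60 (adjusted p = 0.0127; range 0.00402 to 0.0285).

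**Figure D1:**
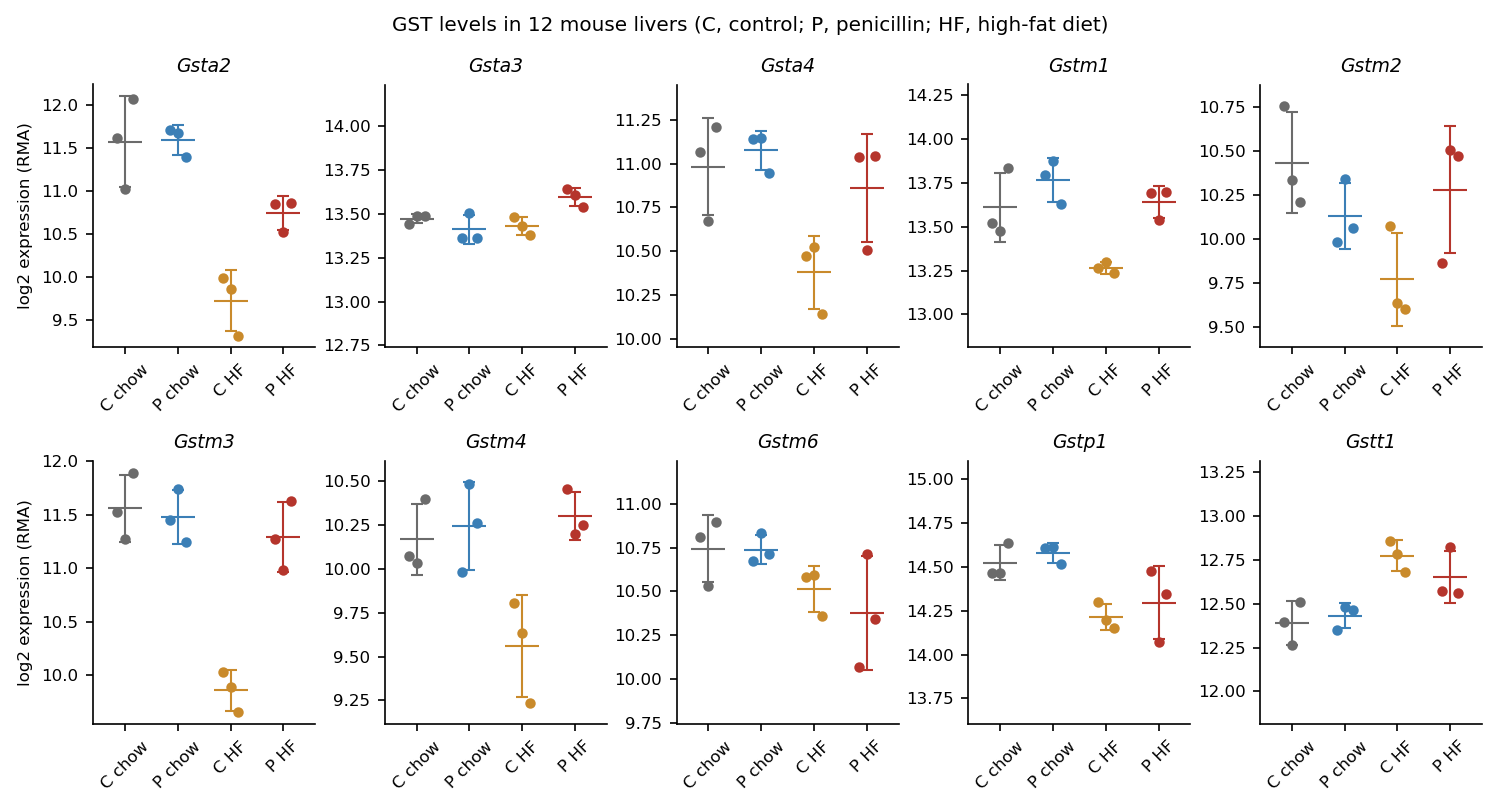
Levels of the 10 GST genes in the 12 livers: each dot is 1 mouse, the horizontal bar the mean of 3 mice and the whisker 1 SD, on a log2 axis that spans at least 1.5 units in each panel. For Gsta2 and Gstm3 the 3 control high-fat mice lie below every other mouse, and the penicillin high-fat mice lie above them.

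The bases before the start sites of Gstm3 and Gsta2, the members called for the diet in control mice, are shown with those of Gsta3, an alpha class gene that was not called in any comparison. Each run is the 250 bases before the RefSeq start site (assembly GRCm38.p6), 5′ to 3′ on the strand of the gene, and capitals mark a match to TGACNNNGC, the core of the antioxidant response element, on either strand. Gstm3 lies on the minus strand at chr3:107969175-107969424, Gsta2 on the minus strand at chr9:78347146-78347395 and Gsta3 on the plus strand at chr1:21240335-21240584.
Gstm3: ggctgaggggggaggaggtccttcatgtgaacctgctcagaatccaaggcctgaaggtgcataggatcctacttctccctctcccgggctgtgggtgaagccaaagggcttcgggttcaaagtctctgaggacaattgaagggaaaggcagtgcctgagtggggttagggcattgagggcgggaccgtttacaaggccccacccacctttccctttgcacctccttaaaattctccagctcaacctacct
Gsta2: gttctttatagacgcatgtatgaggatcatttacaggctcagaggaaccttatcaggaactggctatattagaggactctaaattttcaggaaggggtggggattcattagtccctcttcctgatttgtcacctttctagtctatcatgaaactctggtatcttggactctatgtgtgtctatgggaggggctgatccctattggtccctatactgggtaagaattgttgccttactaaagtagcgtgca
Gsta3: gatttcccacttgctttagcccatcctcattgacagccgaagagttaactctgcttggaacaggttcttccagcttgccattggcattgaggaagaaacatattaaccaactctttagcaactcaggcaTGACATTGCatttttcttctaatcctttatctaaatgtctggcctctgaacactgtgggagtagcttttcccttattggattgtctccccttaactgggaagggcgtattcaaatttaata
Gsta3 held 1 match, from 121 to 113 bases before the start site, and neither Gstm3 nor Gsta2 held one in these windows. Of the 9 members with an entry in the RefSeq table, 1 had the antioxidant core in any of its windows, 13 in all. Gsta4 was the member without an entry. Of the same 9, 0 had AGGTCA, a motif of nuclear receptors, or TTGCGTG, a form of the xenobiotic response element. Other forms that share the letters GCGTG were not searched. The Gsta2 window holds these letters near its end, and windows of Gstm1 and Gstp1 hold them too. Over 32851 windows of the same length, 10.2% held the antioxidant core, 14.0% the nuclear receptor motif and 0.925% the form TTGCGTG. A match is a description of letters, and the windows do not reach more distant elements. The mu class genes lie in 1 cluster on chromosome 3 in the order Gstm5, Gstm7, Gstm6, Gstm3, Gstm2, Gstm1 and Gstm4, so the called Gstm3 sits between Gstm6 and Gstm2, which were not called in any comparison.

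Penicillin in mice on the high-fat diet raised 1 member, Gstm3. It stood at 11.27, 10.98 and 11.63 in the penicillin high-fat mice against 10.03, 9.89 and 9.65 in the control high-fat mice, so all 3 mice on penicillin lay above all 3 controls. Gstm3 rose by 1.44 ± 0.19 (SE, n = 3 per group; 2.71-fold; adjusted p = 0.00866 by limma), in a comparison in which 0.341% of genes were called and 0.254% were called higher. The call held in all 12 fits that left out 1 array, with changes from 1.27 to 1.60 and adjusted p from 0.00668 to 0.0488. This comparison shares the control high-fat mice with the preceding one, so the fall of Gstm3 on the diet and its rise with penicillin are not independent measurements.

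The next largest values were at Gsta2 and Gstm4, and neither passed. Gsta2 stood at 10.86, 10.52 and 10.86 in the penicillin high-fat mice, all above the control high-fat mice and all below the control chow mice. Its difference was 1.02 ± 0.24 (adjusted p = 0.118 by limma). Gstm4 stood at 10.46, 10.20 and 10.25 in the penicillin high-fat mice against 9.81, 9.64 and 9.24 in the control high-fat mice, without overlap. Its difference was 0.74 ± 0.16 (adjusted p = 0.0929 by limma). When arrays were weighted by their quality, 3 members were called, Gsta2 and Gstm4 beside Gstm3.

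Among the other members, Gstm1 was at 0.38 ± 0.10, Gsta4 at 0.48 ± 0.17, Gstm2 at 0.51 ± 0.20 and Gsta3 at 0.17 ± 0.07, with unadjusted p under 0.05, as 1396 of the 13788 genes had, and adjusted p from 0.181 to 0.427. For Gstm1 and Gsta3 the 3 penicillin mice lay above the 3 controls, while for Gsta4 and Gstm2 the groups overlapped. In Gsta4 the mouse penicillin high-fat 2, at 10.51, lay inside the control range of 10.14 to 10.53, and the other penicillin high-fat mice were at 11.04 and 11.04. In Gstm2 the mouse at 9.86, penicillin high-fat 1, lay inside the control range of 9.60 to 10.08. Gstp1, Gstm6 and Gstt1 were at 0.08, -0.14 and -0.12, with 95% intervals from -0.14 to 0.30, from -0.46 to 0.19 and from -0.33 to 0.08. The median over the 10 genes was 0.43 against 0.00 over all genes, and 8 of the 10 values were positive.

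**Figure D2:**
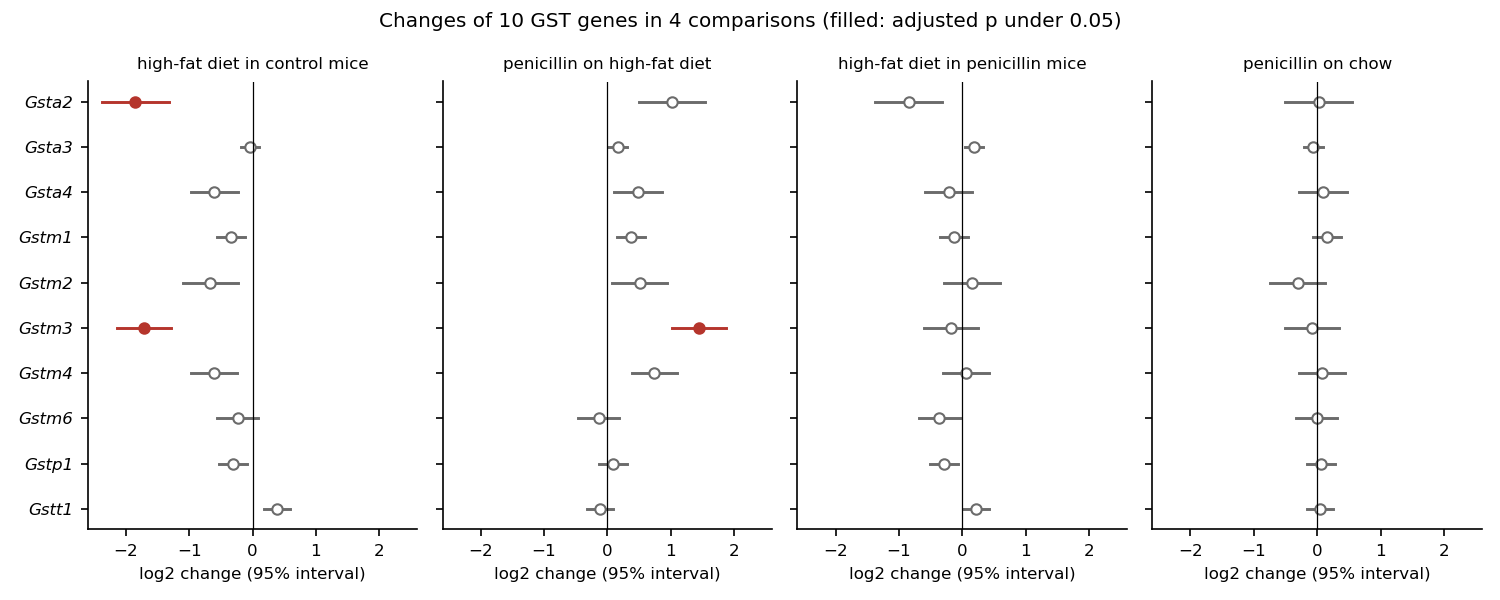
Changes of the 10 GST genes in 4 comparisons, as log2 differences of group means with 95% intervals from limma (n = 3 mice per group); filled red points have an adjusted p under 0.05. Gsta2 and Gstm3 are filled at -1.85 and -1.71 for the diet in control mice, Gstm3 at 1.44 for penicillin on high-fat diet, and no point is filled in the panels of the diet in penicillin mice and of penicillin on chow.

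Other genes moved in the same mice. The score of the 10 male-biased liver genes measured was between -1.23 and -0.79 in the penicillin high-fat mice and between -0.22 and 0.09 in the control high-fat mice, with 4 of 10 called lower, and between 0.36 and 0.66 on control chow. The score of 13 pericentral hepatocyte markers, of the zone where several GSTs are most abundant in mice, was between -0.24 and -0.10 in the control high-fat mice, between 0.07 and 0.40 in the control chow mice, and between -0.31 and -0.06 in the penicillin high-fat mice, with 1 of 13 called lower in each of these comparisons. The score of 16 macrophage and Kupffer cell markers was between 0.33 and 0.47 in the control high-fat mice, between -0.18 and -0.06 on control chow and between -0.12 and 0.47 in the penicillin high-fat mice, with 0 called in either comparison. The heat shock score was between -0.73 and -0.38 on control chow and between -0.23 and 0.59 in the control high-fat mice, with 1 of 10 called higher. The part of these in the GST values was not tested.

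In mice given penicillin, the high-fat diet changed none of the 10 genes past the threshold, in a comparison in which 8.32% of all genes were called, and 5 had an unadjusted p under 0.05 by limma, as did 3378 of the 13788 genes. Gsta2 came closest: it stood at 11.71, 11.67 and 11.40 on chow and at 10.86, 10.52 and 10.86 on the high-fat diet, without overlap. Its difference was -0.85 ± 0.24 (adjusted p = 0.0506 by limma, 0.0222 to 0.224 over the alternatives), and it was called when control chow 2, control chow 3 or control high-fat 3 was left out. Those arrays are outside this comparison and enter it only through the shared variance and the adjustment. Leaving out an array of either penicillin group did not give a call of Gsta2. Gstm3, in contrast to its value in control mice, was at -0.18 with a 95% interval from -0.61 to 0.24. Its penicillin chow mice, at 11.45, 11.75 and 11.24, overlapped the penicillin high-fat mice. Gstp1 was at -0.28 ± 0.10, Gstm6 at -0.36 ± 0.15, Gsta3 at 0.19 ± 0.07 and Gstt1 at 0.22 ± 0.09, with adjusted p from 0.109 to 0.172. In this comparison 9 of 10 male-biased genes were called lower and 10 of 16 macrophage, 9 of 15 stellate and 5 of 14 sinusoidal endothelial markers higher, the macrophage score being -0.11, -0.64 and -0.85 in the penicillin chow mice, the last 2 being the chow arrays of low 18S signal, and their part in the GST values was not tested. Without penicillin high-fat 2, the mouse with the highest Gstm6 value of its group (10.72 against 10.07 and 10.34), Gstm6 was the 1 member called. In that fit 932 of the 13788 genes were called.

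The interaction asks whether the penicillin effect differed between the diets, and it passed for none of the 10 genes. In this comparison 0.0435% of all genes were called. An unadjusted p under 0.05 by limma was found for 5 of the 10 and for 842 of the 13788 genes. Gstm3 had the largest value, 1.52 ± 0.28 (adjusted p = 0.135 by limma, 0.0479 to 0.371 over the alternatives), so its penicillin effect is not shown to depend on diet. Gsta2, Gstm2, Gstm4 and Gsta3 were at 1.00 ± 0.34, 0.82 ± 0.28, 0.67 ± 0.23 and 0.23 ± 0.10, with adjusted p from 0.677 to 0.775.

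On chow, penicillin changed none of the 10 genes, and none had an unadjusted p under 0.05 by limma, against 1051 of the 13788 genes. The 2 chow groups overlapped for every member, and 0.00725% of all genes were called. Gstm2 had the smallest p, at -0.31 ± 0.20 (adjusted p = 0.770 by limma), with penicillin mice at 9.98, 10.34 and 10.06 and control mice at 10.76, 10.34 and 10.21. For Gstm3 the difference was -0.08 with a 95% interval from -0.51 to 0.34, and for Gsta2 it was 0.02 with an interval from -0.50 to 0.54. The value of Gstm3 on the high-fat diet was 1.44 ± 0.19, and the interaction, which compares it with that on chow, did not pass (adjusted p = 0.135 by limma). The members ranged from -0.31 to 0.16, and a rise of Gstm3 on chow as large as 0.34 is inside its interval.

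Averaged over both treatments, the diet lowered 5 members and raised 1, where 14.5% of all genes were called, 4.85% lower and 9.63% higher. Gsta2 fell by 1.35 ± 0.17 (adjusted p = 7.10e-04 by limma) and Gstm3 by 0.94 ± 0.14 (adjusted p = 0.00162). For Gstm3 the average is of -1.71 in control mice and -0.18 in penicillin mice, values whose difference, the interaction, did not pass. Gstp1 fell by 0.30 ± 0.07 (adjusted p = 0.0187), with values of -0.31 in control and -0.28 in penicillin mice, and it lost the call without the 3 arrays of low 18S signal (adjusted p = 0.0566; range over all alternatives 0.00695 to 0.0566). Gstt1 rose by 0.30 ± 0.07 (adjusted p = 0.0124), with 0.38 in control and 0.22 in penicillin mice. Gstp1 and Gstt1 each had high-fat mice that did not overlap the chow mice within either treatment, and both kept the call in all 12 fits that left out 1 array. On the same average 9 of the 10 male-biased liver genes were called lower, and 12 of 16 macrophage, 10 of 15 stellate and 7 of 14 sinusoidal endothelial markers were called higher, and their part in these changes was not tested.

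Gsta4 and Gstm1 also fell on this average, by 0.41 ± 0.12 (adjusted p = 0.0424 by limma) and 0.24 ± 0.07 (adjusted p = 0.0489), but close to the threshold. Of the 12 fits that left out 1 array, Gsta4 kept the call in 3 (without control chow 2, penicillin high-fat 1 or penicillin high-fat 3) and Gstm1 in 2 (without control chow 2 or penicillin chow 3). Across those fits their adjusted p ranged from 0.0231 to 0.0903 and from 0.0396 to 0.101. Gstm6, at -0.30 ± 0.11 (adjusted p = 0.0813), and Gstm4, at -0.28 ± 0.12 (adjusted p = 0.134), did not pass.

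Averaged over both diets, penicillin changed none of the 10 genes, where 0.145% of all genes were called. An unadjusted p under 0.05 by limma was found for 5 of the 10 and for 1643 of the 13788 genes. Gstm3 was at 0.68 ± 0.14 (adjusted p = 0.0913 by limma, 0.0328 to 0.218 over the alternatives), Gsta2 at 0.52 ± 0.17, Gstm4 at 0.41 ± 0.12, Gsta4 at 0.29 ± 0.12 and Gstm1 at 0.27 ± 0.07, with adjusted p from 0.188 to 0.377 for the last 4. Gstm3 was called without penicillin high-fat 2 and with the 18S signal as a covariate. In these fits 93 and 179 genes in all were called, against 20 in the main fit.

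Because GST genes of a class are similar in sequence, the other probe sets of the members were read as a check; those whose identifier ends in s_at or x_at hold probes that also match other transcripts, so the gene behind such a signal is uncertain. The brightest Gstm3 probe set ends in s_at and the brightest Gstm1 probe set in x_at. When all 24456 probe sets with a gene symbol that passed the filter were fitted as separate features, the dimmer Gstm3 probe set, which has no such suffix, was at -1.11 ± 0.19 for the diet in control mice (adjusted p = 0.0272 by limma) and at 1.19 ± 0.19 for penicillin on high-fat diet (adjusted p = 0.0266). It read 7.17, 7.34 and 7.26 in the control high-fat mice and 8.46, 8.11 and 8.77 in the penicillin high-fat mice. The 3 dimmer Gstm1 probe sets were at -0.55 to -0.44 for the diet in control mice and at 0.41 to 0.50 for penicillin on high-fat diet, the same directions as the brightest. The dimmer Gsta3 probe set was at -0.19 and 0.29. Gsta2, Gsta4, Gstm2, Gstm4, Gstm6, Gstp1 and Gstt1 had 1 probe set each.

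**Figure D3:**
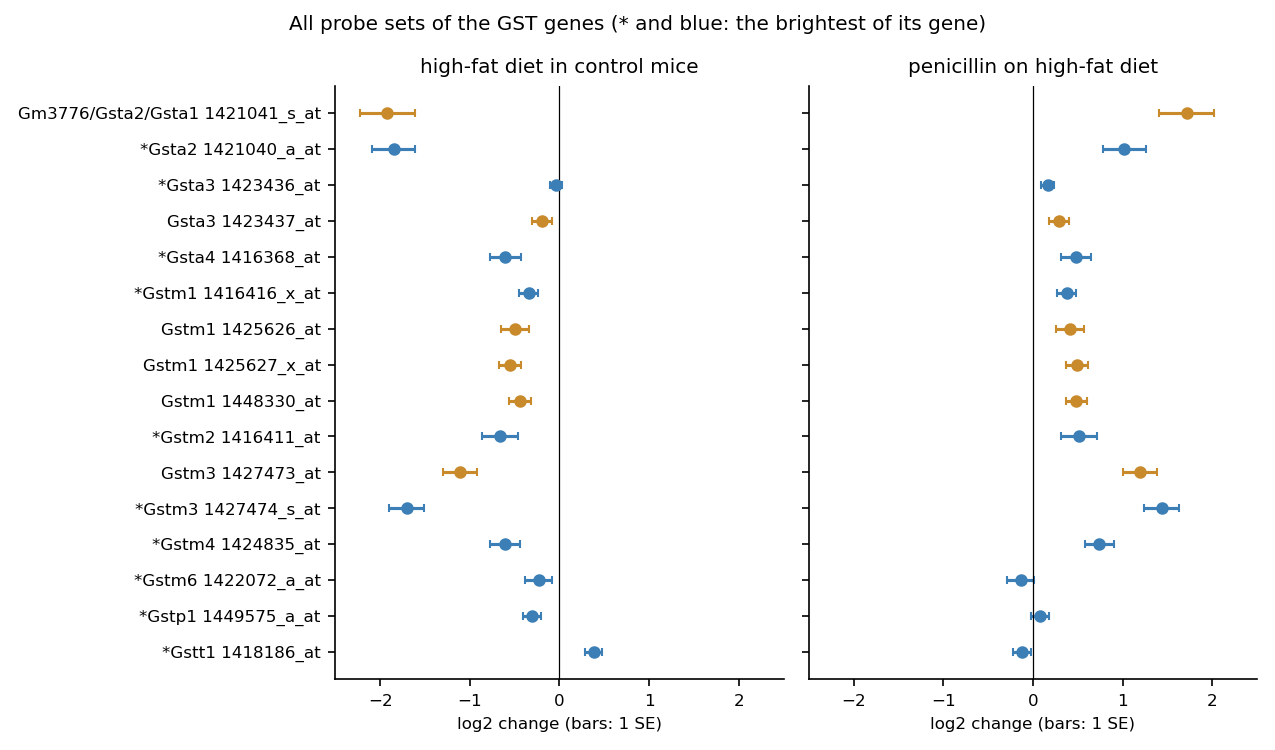
Every probe set of the 10 genes, and 1 whose annotation names Gm3776, Gsta2 and Gsta1 together, for the diet in control mice and for penicillin on high-fat diet; points are log2 changes with bars of 1 SE, and blue marks the brightest of each gene. The 2 Gstm3 probe sets lie at -1.71 and -1.11 in the left panel and at 1.44 and 1.19 in the right one, and the 4 Gstm1 probe sets lie together in each.

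The order of the mice within a group was similar for many members and not for all. In the control chow group 9 of the 10 were highest in mouse 3 and 8 were lowest in mouse 2, and in the penicillin chow group 9 were highest in mouse 2. In the penicillin high-fat group 6 were lowest in mouse 2 (Gsta2, Gsta4, Gstm1, Gstm3, Gstm4 and Gstp1), while Gstm2, Gstm6 and Gstt1 were highest in that mouse. The SD within a group was between 0.03 and 0.53 over the members, largest for Gsta2 in the control chow group.

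Of the 8 other soluble GST genes tested, 1 rose and none fell with the diet in control mice, the mitochondrial and peroxisomal GST gene Gstk1 at 0.46 ± 0.09 (adjusted p = 0.0449 by limma), and the list median was 0.03 against 0.00 over all genes. None was called for penicillin on high-fat diet, where the median was 0.02 and Gstm5 had the smallest p at 0.25 ± 0.09 (adjusted p = 0.364). Of 5 tested genes of microsomal GSTs and their relatives, none was called in these comparisons. Mgst3, a membrane-bound GST with peroxidase activity, was at 0.55 ± 0.18 and 0.67 ± 0.18, and it rose by 1.11 ± 0.18 with the diet in penicillin mice (adjusted p = 0.00431).

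Genes that make and recycle glutathione gave 0 calls among 24 tested in the diet comparison in control mice and 0 for penicillin on high-fat diet, with medians of 0.01 and 0.05. The smallest p in the second was at Gpx4, the phospholipid hydroperoxide glutathione peroxidase, at 0.41 ± 0.09 (adjusted p = 0.0774 by limma). In penicillin mice, where 8.32% of all genes were called for the diet, 2 of the 24 passed, a share near that background: Gpx4 rose by 0.36 ± 0.09 and Ggct, the gamma-glutamylcyclotransferase, by 1.11 ± 0.14 (adjusted p = 0.0247 and 9.87e-04). Of 6 tested transporters that can export glutathione conjugates, none was called in any of the 7 comparisons. Of 20 regulators none was called for the diet in control mice or for penicillin on high-fat diet. The PXR gene Nr1i2 had the smallest p in the former, at 0.45 ± 0.09 (adjusted p = 0.0508 by limma). Nr1i2 was the 1 regulator called for the diet in penicillin mice, at 0.42 ± 0.09 (adjusted p = 0.0186). It was also the 1 called for the diet averaged over treatments, at 0.43 ± 0.07 (adjusted p = 0.00191), where 14.5% of all genes were called. For penicillin on high-fat diet Rxra had the smallest p, at -0.24 ± 0.07 (adjusted p = 0.248), and the NRF2 gene Nfe2l2 was at 0.37 ± 0.16 (adjusted p = 0.479).

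Among 20 NRF2 targets other than GSTs, 1 rose with penicillin on high-fat diet, the quinone reductase gene Nqo1, by 0.84 ± 0.12 (adjusted p = 0.0119 by limma). All 20 values were positive, with a median of 0.47 against 0.00 over all genes. For the diet in control mice none of these 20 was called, 9 were positive and the median was -0.03. Among 16 CAR and PXR targets other than GSTs, the diet in control mice lowered Cyp2b10 by 1.77 ± 0.22 and Cyp2c55 by 1.68 ± 0.27. It raised Cyp2b9 by 3.50 ± 0.51, and the list median was -0.37, where 0.899% of all genes were called. For the diet in penicillin mice 8 of the 16 were called lower and 1 higher, where 8.32% of all genes were called. On the average over treatments 9 were called lower and 1 higher, where 14.5% of all genes were called. None of the 16 was called for penicillin on high-fat diet, where the median was 0.08. Cyp2b10 had means of 8.15 and 8.07 in the control and penicillin groups on chow and of 6.39 and 6.56 in those on the high-fat diet.

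**Figure D4:**
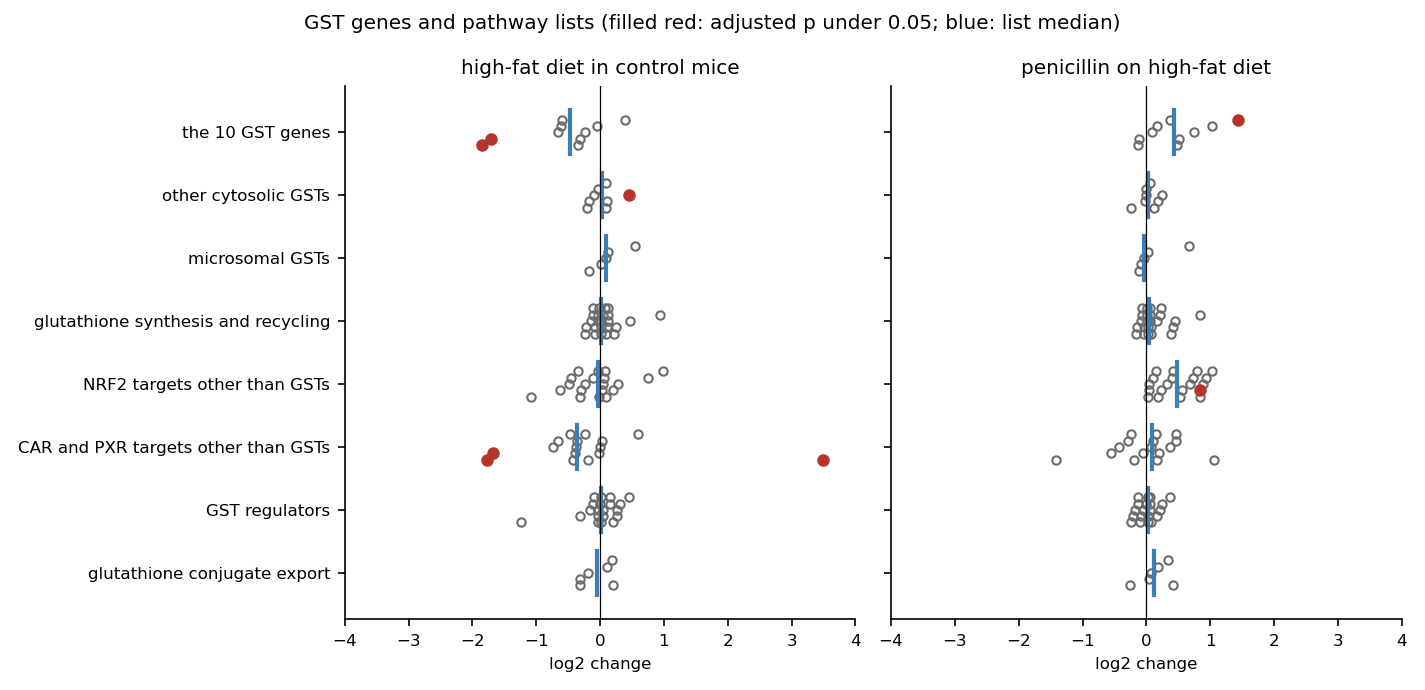
Log2 changes of the 10 GST genes and of 7 lists of related genes for the diet in control mice and for penicillin on high-fat diet; each circle is 1 gene, red is an adjusted p under 0.05 and the blue bar is the list median. The GST median is -0.47 in the left panel and 0.43 in the right one, the NRF2 target median is -0.03 and 0.47, and the CAR and PXR target median is -0.37 and 0.08.

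The genes outside the family whose levels were most like those of the 3 members with the smallest adjusted p were found by Pearson correlation over the 12 arrays, a description of mice that fall into 4 groups. For Gstm3 they were Stam2, Rspo2, Ugt2b35, Ugdh and Mapk6, with r from 0.88 to 0.90. Ugdh, which makes the sugar donor of glucuronidation, had means of 11.81 and 12.14 in the control and penicillin groups on chow and of 11.18 and 11.98 in those on the high-fat diet, and the lowest mean of Ugdh, like that of Gstm3, was in the control high-fat group. For Gsta2 they were Rspo2, Cyp2c55, Kifc3, Stam2 and Cyp3a44, with r from 0.91 to 0.94. Cyp2c55, a cytochrome P450, had means of 8.36, 8.54, 6.68 and 7.14 in the same order. For Gstt1 they were Hpgd, Sass6, Vnn3, Zc3h13 and Banp, with r from 0.90 to 0.93.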

How the data were processed

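The deposited table holds log2 values of 45101 probe sets for each of the 12 arrays. The submitters' processing notes name RMA and affy, with versions not given in the sources used. The authors' RMA step corrects background, equalises the distribution of intensities between arrays and summarises each probe set, so changes are relative to the bulk of the genes. Array medians lay between 5.52 and 5.59. Gene symbols were taken from the platform annotation in GEO: 34945 had 1 symbol, and those with several were left out of the tests. Symbols were checked by gene ID against a RefSeq table, which changed 0 of them.

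For each of 18193 genes the brightest probe set was kept, and genes above the 40th percentile (log2 5.00) on at least 3 arrays were tested. limma (version 3.58.1, R 4.3.3) fitted 4 group means on all 12 arrays (8 residual degrees of freedom), and 7 contrasts were moderated with eBayes and adjusted by Benjamini-Hochberg across 13788 genes. The sample titles number the arrays of a group as biological replicates, read here as 1 mouse each. P-values rest on the variation among them, and 3 arrays a group set their precision. Simulated data on 13788 genes, with planted changes in penicillin high-fat arrays and independent noise, tested the fit. It recovered 64% of genes changed by 0.5 log2 units and 98% of those changed by 1. The simulation gave 184 calls, against 47 in the real comparison of penicillin on high-fat diet. Its adjusted threshold was therefore easier to pass, and these shares do not give the chance of detecting a change in the real data.

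The members, gene lists and tests were chosen with earlier results of these data known. Every member is named, and changes with SE and adjusted p are given for members with an unadjusted p under 0.05 or, with none, the smallest p. For each related list, up to 3 called genes or the 1 with the smallest p may be named; Nfe2l2 was named after its values were seen. For up to 3 called members the 5 most correlated genes are named. Other settings tried were the filter, another probe set or their mean, normalization by cyclic loess or by medians, weights for arrays, the variance model, the arrays fitted, a replicate block, the 18S signal and leaving out each array.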

Additional observations from a re-analysis of the deposited data

Results flagged for a closer look

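A probe set whose annotation names Gm3776, Gsta2 and Gsta1 together was outside the comparisons because its signal cannot be assigned to 1 gene. It stood at 10.99, 10.44 and 11.07 in the penicillin high-fat mice, above the 9.48, 9.27 and 8.61 of the control high-fat mice, a difference of 1.72 ± 0.31 (adjusted p = 0.0532 by limma when all probe sets with a symbol were fitted), against 1.02 for the Gsta2 probe set. In control mice the diet lowered it by 1.92 ± 0.31 (adjusted p = 0.0192). Whether the 2 probe sets differ was not tested.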

How the results depend on the processing

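The falls of Gsta2 and Gstm3 with the diet in control mice and the rise of Gstm3 with penicillin on high-fat diet kept their direction and call in all 12 fits that left out 1 array and in all 12 other alternatives. With array weights the number of members called was 3 for penicillin on high-fat diet and 5 for the diet in control mice. It was 1 for the interaction and 1 for penicillin averaged over diets. With those weights 183 and 571 genes in all were called in the first 2 comparisons, against 47 and 124. In the last 2 comparisons 15 and 108 were called, against 6 and 20. For the diet in penicillin mice it was 1, Gsta2 lower, with the stricter filter, cyclic loess or only the 6 arrays compared. In these fits 1172, 1200 and 482 genes in all were called. With trended robust variances it was also 1, but this was Gsta3, higher, where 1240 genes were called. It was 2, Gsta2 and Gstp1 lower, with the 18S signal as a covariate, where 971 genes were called. The number was 0 to 1 when 1 array was left out, with 530 to 1114 genes called, against 1147 in the main fit. For penicillin averaged over diets it was 1 with the 18S covariate, where 179 genes in all were called, and 0 to 1 when 1 array was left out. The fit of these that gave 1 left out penicillin high-fat 2, with 93 genes in all called, against 20 in the main fit. For the diet averaged over treatments, Gsta4, Gstm1 and Gstp1 were at -0.35, -0.22 and -0.25 without the 3 arrays of low 18S signal. Their main values were -0.41, -0.24 and -0.30. In that fit the penicillin chow group is 1 mouse assumed to vary like the others. The number of members called in that fit is therefore not given, and the counts that follow leave it out. When 1 array was left out, the number of members called for the diet averaged over treatments was 4 to 6, with 1356 to 2077 genes in all called. It was also 4 with median centring, where Gsta4 and Gstm1 were not called, and 4 with the replicate block. In these fits 1969 and 1720 genes were called. It was 5 without the filter, with array weights or with the 18S covariate, where 1869, 2768 and 1859 genes were called. With all probe sets it was 5, where 2937 probe sets were called. The main fit called 6 members and 1997 genes. Alox5ap, the gene with the smallest p of its list on chow, turned to 0.26 without the 3 arrays of low 18S signal. The cause was not tested.

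Replicate numbers are shared between groups, but same-numbered arrays did not deviate together: correlations of deviations from the group means ran from -0.23 to 0.17, and 2 of 12 arrays correlated best with their own number. With the number as a block, 1 member was called for penicillin on high-fat diet, where 35 genes in all were called. For the diet in control mice 2 members were called, where 70 genes were. For the diet averaged over treatments 4 members were called, where 1720 genes were. In the other comparisons 0 members were called, although 1022 genes were called for the diet in penicillin mice. The contrasts over both factors need all 12 arrays, so they have no fit on 6. Changes of scaling moved the median of all genes by at most 0.02. A total of 3 mice a group leaves small changes undetected.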
